A study of Homo sapiens with 6 samples.

Results

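The genes of nucleotide synthesis and purine salvage were followed in PANC-1 cells after knockdown of CD73. The module was a list of 48 purine and pyrimidine enzyme genes, and its members were the rows whose Ensembl identifier maps to a listed symbol. The genes for the adenosine receptors, adenosine kinase and adenosine deaminase were not part of it. All 48 were present among the 30735 genes of each expression table. The rule uses no measured value, although the list was drawn up with earlier results of these data known.

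PANC-1 is an established line of human pancreatic ductal adenocarcinoma. The study transfected it in serum-free medium, using Lipofectamine, with siRNA against CD73 or with a negative control, and sequenced total RNA from 3 samples of each group. Both groups had been grown in DMEM with fetal bovine serum and both received a transfection, so the comparison is between siRNAs and no untransfected cells are involved. The samples of each group are numbered 1 to 3 in the labels, and below, values for 3 samples are always given in the order of replicates 1, 2 and 3. The labels do not say whether the 3 CD73 siRNA samples received the same siRNA sequence. Expression is given as RPKM, the reads of a gene normalised to the length of its exons and to the library total, which allows levels to be compared between genes of different length.

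CD73, encoded by NT5E, is an enzyme on the outer face of the plasma membrane that removes the phosphate from extracellular AMP and releases adenosine. Cells can take up adenosine and its breakdown products inosine and hypoxanthine and rebuild nucleotides from them, which is called salvage, or they can build the purine and pyrimidine rings from small precursors, which is called de novo synthesis. De novo synthesis and the salvage of free bases such as hypoxanthine use the activated sugar PRPP. Both routes feed the ribonucleotide reductase that supplies the building blocks of DNA. The comparison asks whether the transcripts of these enzymes differ when CD73 is reduced.

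NT5E, the targeted gene, was at 3.36, 6.85 and 8.22 RPKM in the CD73 siRNA samples and at 13.96, 13.9 and 17.1 RPKM in the controls. The knockdown samples all lay below the controls, at 41.0% of the control mean. The difference was -1.23 ± 0.26 (SE) in log2(RPKM + 1), with a limma p of 0.0014 and an adjusted p of 0.303. An exact permutation test over the samples (two-sided) gave p = 0.1, the smallest value that 3 against 3 samples allow. CD73 siRNA replicate 1 had the lowest NT5E level, and the other 2 knockdown samples kept more than 6 RPKM.

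Each library had been scaled by a total of 15009113 to 16836207 reads, and 12527 genes reached at least 1 RPKM in at least 3 samples and were tested. Of these, 392 (3.13%) had an unadjusted p below 0.01, the limit used here for calling a gene changed, and 1519 (12.1%) had a p below 0.05. Only 1 gene (0.00798%) passed a Benjamini-Hochberg adjusted p of 0.05. With the replicate number as a block, 948 genes (7.57%) had a p below 0.01 and 2925 (23.3%) a p below 0.05, and no gene passed the adjusted threshold. The epithelial keratins KRT8 and KRT18 were expressed in every sample and were lower after knockdown. KRT8 was at 45.4, 47.5 and 30.0 RPKM against 158, 72.0 and 83.6 RPKM, with a p of 0.0026, and KRT18 had a p of 0.0045. KRT19 was at 3.59 to 5.39 RPKM, and KRT7, which is usual in ductal cells, was near 0 at 0.0145 to 0.107 RPKM. Of 10 markers of immune, endothelial, islet and acinar cells, 7 were in the tables, and none exceeded 0.158 RPKM in a sample. Their summed level was 0.0687 to 0.313 RPKM in the knockdown samples and 0.165 to 0.201 RPKM in the controls. In bulk RNA of this kind, fewer cells in one state and less RNA per cell cannot be told apart.

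No member of the module passed the limit of p below 0.01 in the comparison of the 2 groups, and the smallest adjusted p among the members was 0.357. RRM2, the small subunit of ribonucleotide reductase, had the largest difference in log2(RPKM + 1), 0.41, at 132% of the control mean. It was followed on that scale by the Golgi nucleotidase ENTPD4 (0.33, 130%) and by IMPDH2, which commits IMP to guanine nucleotides (0.33, 125%). These 3 were the only members with a p below 0.05, which is 6.67% of the 45 members tested, against 12.1% of all tested genes. With the replicate block, ENTPD4 was the only member past p below 0.01 (2.22%, against 7.57% of all tested genes). When the second negative control was left out, IMPDH2 and RRM2 passed p below 0.01 in the fit without the block, at 0.0031 and 0.0073 (4.44% of the tested members, against 6.43% of the genes tested in that fit).

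Of the 45 members tested, 16 had a positive difference and 29 a negative difference. Their median difference was -0.03 in log2(RPKM + 1), against 0.01 for all tested genes, and the median of the absolute differences was 0.08, against 0.14. The extremes on this scale were -0.292 for DHODH, closely followed by AMPD3 at -0.285, and 0.41 for RRM2. The 95% interval of the difference lay wholly within 0.5 log2 units of 0 for 31 of the 45 members, and for 38 with the replicate block. For the other 14 members a difference larger than 0.5 was not excluded by the interval. These bounds are in log2(RPKM + 1), so for low genes they do not limit the fold change itself to 0.5 log2 units. The lowest bound was -0.71 (DHODH) and the highest 0.74 (RRM2). The RPKM of the 48 members summed to 1177 ± 38.6 (SD, n = 3) in the knockdown samples and 1147 ± 53.2 (SD, n = 3) in the controls, and the sums overlapped between groups.

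**Figure D1:**
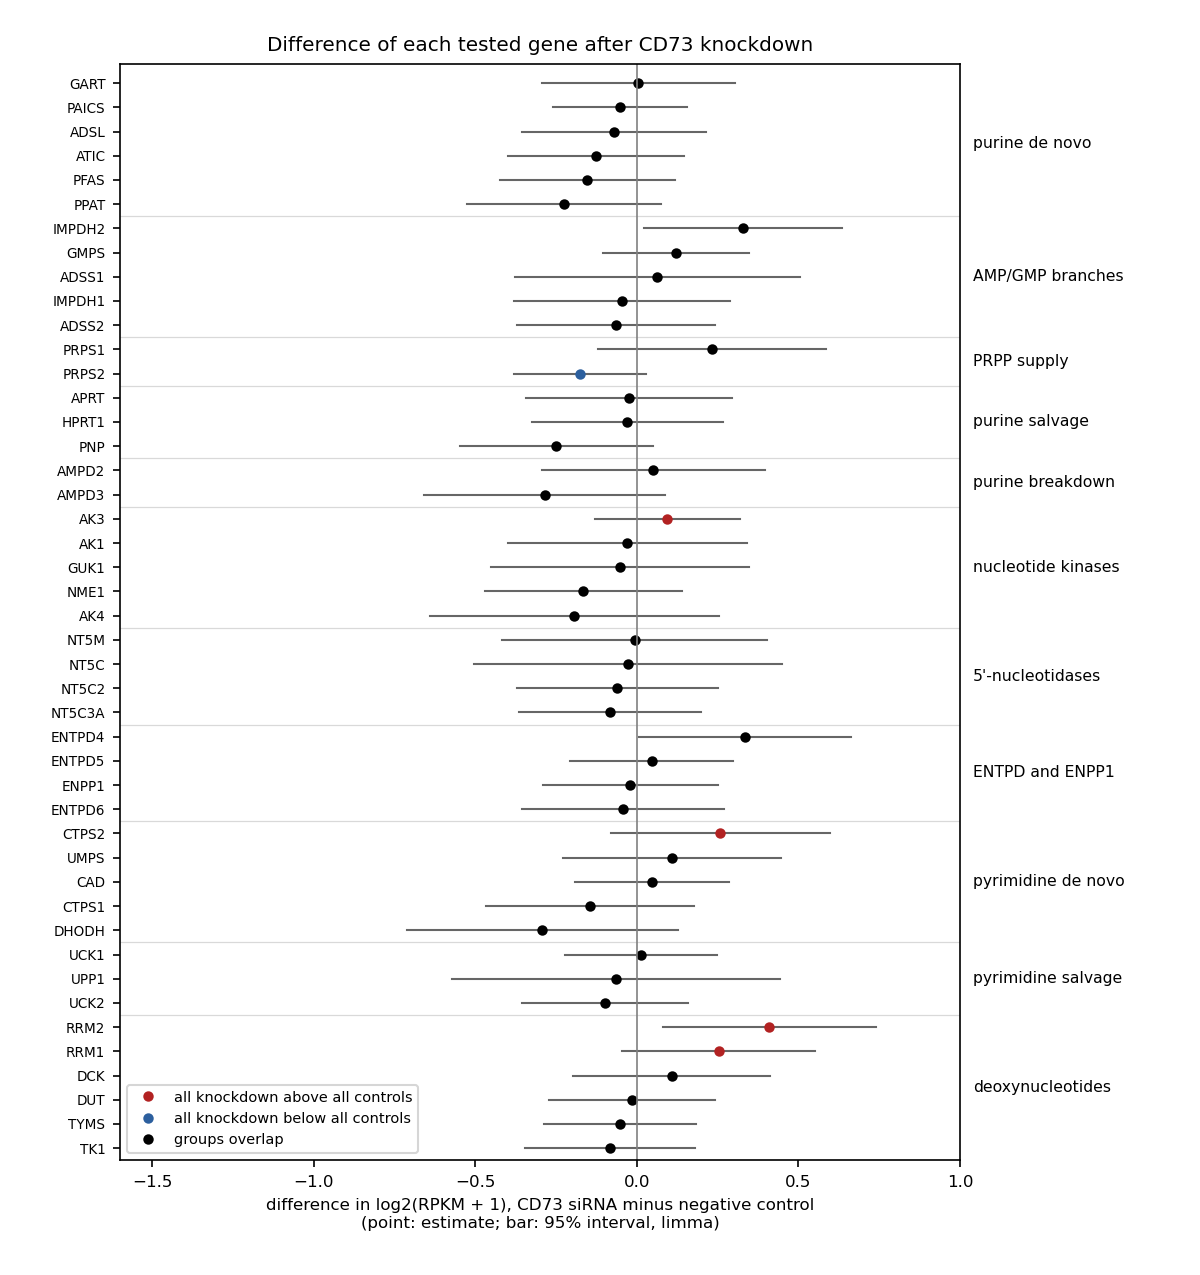
Difference of each of the 45 tested genes in log2(RPKM + 1), CD73 siRNA minus negative control, grouped by role; points are limma estimates, bars are 95% intervals, and colour marks genes whose 3 knockdown samples lie all above (red) or all below (blue) the 3 controls. The interval stays clear of 0 for RRM2, IMPDH2 and ENTPD4 and includes 0 for the other 42 genes.

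The 2 groups were separated for 5 members. All 3 knockdown samples lay above all 3 controls for RRM2, RRM1, CTPS2 and AK3 (8.89% of the tested members, against 10.3% of all tested genes). They lay below them for PRPS2 alone (2.22%, against 8.07%). Within replicate numbers, the knockdown sample was higher than its control in all 3 numbers for 7 members, namely RRM2, RRM1, IMPDH2, ENTPD4, PRPS1, CTPS2 and AK3 (15.6%, against 27.0% of all tested genes). It was lower in all 3 numbers for 6 members, namely DHODH, AMPD3, PNP, PPAT, PRPS2 and CTPS1 (13.3%, against 24.5%). The direction was mixed for the remaining 32. With the block, 8 members had a p below 0.05 (17.8%, against 23.3%). RRM2, IMPDH2, PRPS1 and RRM1 were higher beside ENTPD4, and DHODH, PPAT and PNP were lower.

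**Figure D2:**
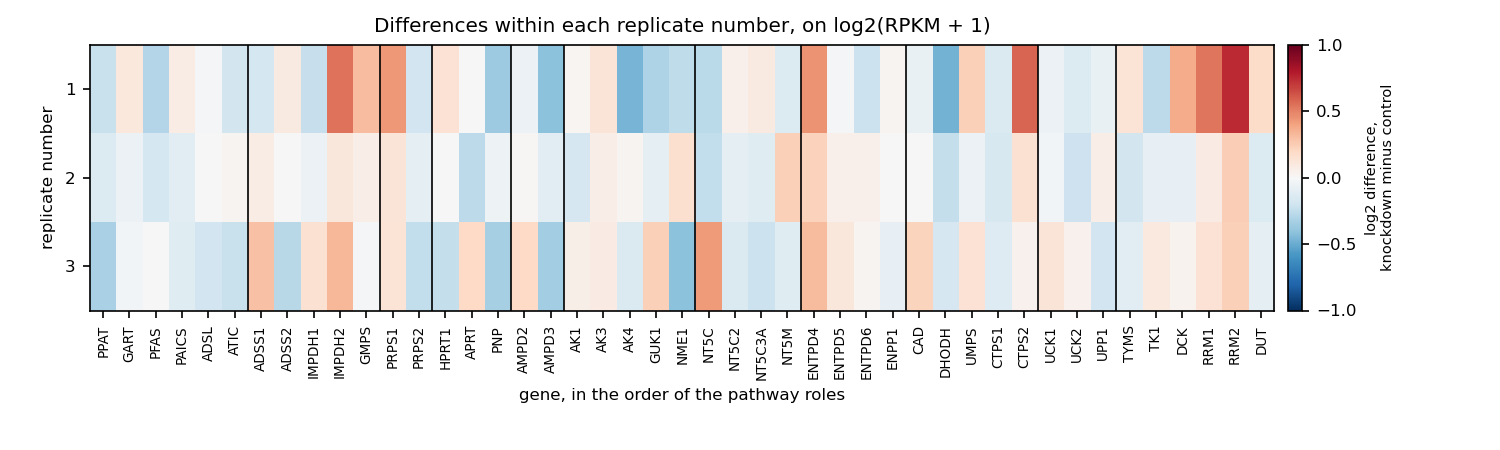
Differences in log2(RPKM + 1) between the CD73 siRNA sample and the negative control of the same replicate number, for the 45 tested genes in pathway order, with red for higher and blue for lower in knockdown; black lines separate the roles. Rows 1 and 3 hold stronger colours than row 2, and RRM2, IMPDH2 and ENTPD4 are red in every row.

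The size of the differences varied between replicate numbers. The median absolute difference of the members was 0.19 in number 1, 0.09 in number 2 and 0.15 in number 3. All tested genes had the same order, at 0.24, 0.10 and 0.15. The median signed difference of the members was -0.02, -0.03 and 0.01. Of the 45 tested members, 20, 19 and 23 were higher in the knockdown sample of numbers 1, 2 and 3.

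Transcript levels in the module spanned from 0.163 RPKM for XDH to 97.3 RPKM for PRPS1 as means over the 6 samples. The median member stood at 14.5 RPKM, against 6.9 RPKM for all tested genes. Of the 48 members, 27 had a mean of at least 10 RPKM and 9 a mean of at least 50 RPKM. Those 9 were, from the highest, PRPS1, TK1, RRM2, HPRT1, ATIC, IMPDH2, RRM1, CTPS1 and PAICS, which between them cover PRPP supply, both purine routes, guanine nucleotides, CTP and the deoxynucleotides. Neighbours in that order were close, for example HPRT1 at 74.0 and ATIC at 72.2 RPKM, and their samples overlapped. XDH, NME2 and CDA did not reach the limit of 1 RPKM in 3 samples and were not tested. The tested members were backed by 59 to 13569 reads per sample, and 41 of them had at least 100 reads in every sample.

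**Figure D3:**
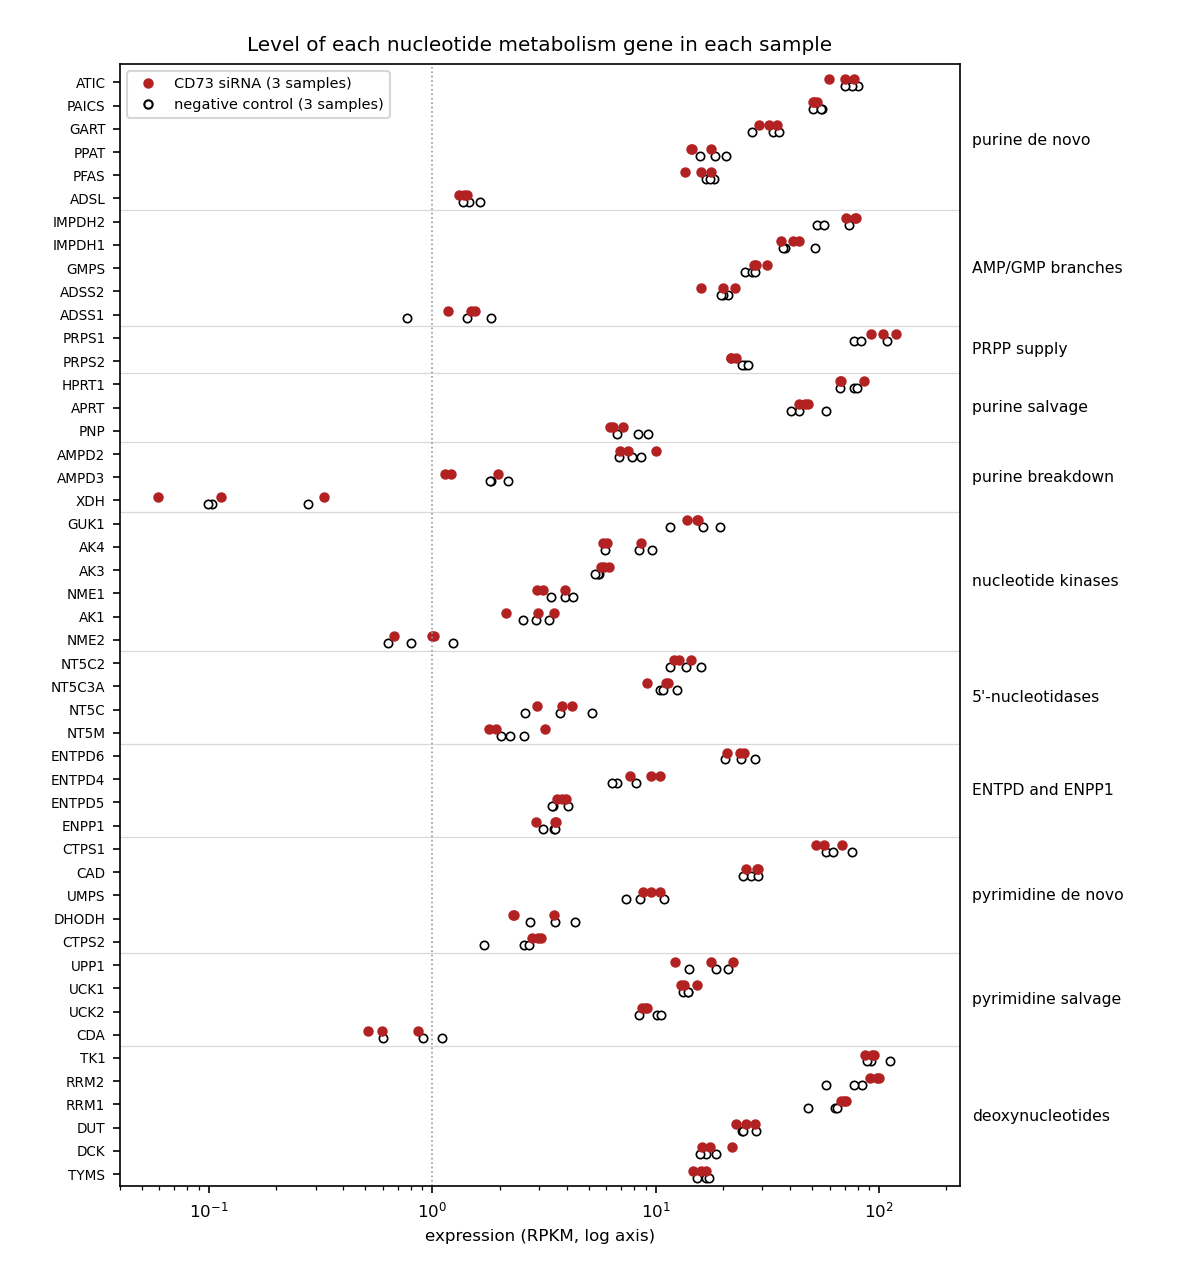
RPKM of each of the 48 genes on a log axis, with 1 point per sample (red, CD73 siRNA; open, negative control), grouped by role; the dotted line marks 1 RPKM. The points of the 2 groups lie over each other for nearly all genes, and only XDH, NME2 and CDA have most samples left of the line.

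PRPP, the activated ribose that both purine and pyrimidine routes consume, is made by the PRPP synthetases PRPS1 and PRPS2, both encoded on chromosome X. PRPS1 was at 104, 119 and 91.6 RPKM after CD73 siRNA and at 77.0, 109 and 83.3 RPKM in the controls. Each knockdown sample exceeded the control of its own number, while the groups overlapped because the second control was above the first and the third knockdown samples. The difference was 0.23 ± 0.15 (SE) with a p of 0.166, or 0.0325 with the replicate block. It was 0.13 without the first control, 0.14 without the second knockdown sample and 0.38 without the second control (p of 0.0249). PRPS2, which lies at chrX:12791355-12824222 on the forward strand (GENCODE 29, GRCh38), had lower values. It was at 21.8, 22.9 and 21.8 RPKM against 25.1, 24.4 and 26.0 RPKM, so that every knockdown sample was below every control. Its difference was -0.18 ± 0.09 (SE), at 88.0% of the control mean, and missed the threshold with a p of 0.083. The ratio of PRPS1 to PRPS2 was 4.78, 5.20 and 4.21 in the knockdown samples and 3.07, 4.45 and 3.21 in the controls, and these ranges overlapped.

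The 6 enzymes that build IMP, the parent purine nucleotide, from PRPP had differences between -0.23 and 0.00, and 5 of the 6 were negative. None had a p below 0.05 without the block. PPAT, which catalyses the committed step, was at 17.6, 14.3 and 14.5 RPKM against 20.6, 15.9 and 18.4 RPKM. It was lower in each replicate number, the groups overlapped, and the p was 0.122, or 0.0293 with the block. ATIC, the bifunctional enzyme of the last steps and the most abundant of the 6, was at 70.5, 77.0 and 59.8 RPKM against 80.4, 75.4 and 70.0 RPKM. The second knockdown sample was above the second control and the other 2 were below theirs, with an interval of -0.40 to 0.14. GART and PAICS, which carry several of the intermediate steps, had means of 32.0 and 52.5 RPKM over all samples and differences of 0.00 and -0.05. PFAS was at 89.8% of the control mean. ADSL, which also serves the AMP branch, was low at a mean of 1.43 RPKM. It shares 18.9% of its exon length with an annotated protein-coding gene on its own strand, so its level is uncertain.

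PPAT and PAICS are neighbours on chromosome 4 that are read in opposite directions, with 136 bases between the RefSeq start of PPAT and 1 of the 3 RefSeq starts of PAICS. Their shared start region is shown because it lies between 2 genes of the same route. Its part in their transcript levels was not tested. The sequence is chr4:56435616-56435751 in GRCh38.p14 from RefSeq, on the reverse strand, which is the strand of PPAT, and capitals mark the reverse complement CCGCCC of the motif GGGCGG.
PPAT-PAICS start region: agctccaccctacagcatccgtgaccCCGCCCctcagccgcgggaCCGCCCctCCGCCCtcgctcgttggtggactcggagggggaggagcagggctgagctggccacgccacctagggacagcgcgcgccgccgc
This window holds 3 matches of the motif, known as the GC box. PPAT was at 84.6% of the control mean and PAICS at 96.3%, and their 95% intervals of -0.53 to 0.08 and of -0.26 to 0.15 overlapped over most of their length.

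IMP is turned into GMP by way of IMPDH and GMPS, and into AMP by way of the adenylosuccinate synthases and ADSL. IMPDH2, the IMP dehydrogenase that is typical of proliferating cells, lies at chr3:49024325-49029408 on the reverse strand. It was at 77.6, 79.1 and 71.4 RPKM after CD73 siRNA and at 52.8, 73.2 and 56.6 RPKM in the controls. The knockdown samples lay above the first and the third controls by a wide margin, and only the third knockdown sample was below the second control. The difference was 0.33 ± 0.13 (SE) with a p of 0.0388 and an adjusted p of 0.388. With the replicate block the p was 0.0131, and without the first control the difference was 0.24 with a p of 0.121. IMPDH1, the second isozyme, was at 96.0% of the control mean with an interval of -0.38 to 0.29. The ratio of IMPDH2 to IMPDH1 ran from 1.73 to 2.17 in the knockdown samples and from 1.026 to 1.92 in the controls, with overlap. GMPS, which completes GMP, was at 109% of the control mean with a p of 0.255. On the AMP side, ADSS2 (96.3%) was far more abundant than ADSS1 (105%), with means of 19.9 and 1.37 RPKM, and neither had a p below 0.6.

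Purine salvage rests on HPRT1, which rescues hypoxanthine and guanine, on APRT, which rescues adenine, and on PNP, which frees bases from inosine and guanosine. HPRT1 was at 85.8, 67.0 and 67.3 RPKM against 77.5, 66.9 and 79.5 RPKM. The first replicate number was higher after knockdown, the second nearly equal and the third lower, and the interval was -0.33 to 0.27. APRT was at 97.3% of the control mean with an interval of -0.34 to 0.30. PNP, at 6.25, 6.45 and 7.12 RPKM against 8.35, 6.72 and 9.21 RPKM, was lower in every replicate number. Its groups overlapped through the second control, and the difference of -0.25 ± 0.13 (SE) had a p of 0.0899, or 0.0378 with the block. None of the 3 salvage genes was higher after CD73 siRNA in its group mean.

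AMP deaminase, which returns AMP to IMP, was represented by AMPD2 and AMPD3. AMPD2 was at 7.49, 6.92 and 10.0 RPKM against 7.83, 6.85 and 8.62 RPKM. The third knockdown sample was the highest of the 6, and the groups overlapped, with a difference of 0.05 and an interval of -0.30 to 0.40. AMPD3 was at 74.0% of the control mean and lower in each replicate number, at 1.14, 1.96 and 1.22 RPKM against 1.84, 2.18 and 1.81 RPKM. It missed the threshold in both fits, with a p of 0.115 and, with the block, 0.0504. XDH, which oxidises hypoxanthine to uric acid, had 6 to 31 reads per sample and was at 0.0590 to 0.326 RPKM.

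The nucleotide kinases turn monophosphates into diphosphates and triphosphates. AK3, the mitochondrial kinase that uses GTP to phosphorylate AMP, lies at chr9:4709559-4742043 on the reverse strand. It was at 6.19, 5.84 and 5.70 RPKM against 5.58, 5.52 and 5.32 RPKM. Every knockdown sample was above every control, but the separation was narrow, with 5.70 RPKM as the lowest knockdown value and 5.58 RPKM as the highest control. The difference was 0.09 ± 0.10 (SE) with a p of 0.363. GUK1, the guanylate kinase and the highest of the group as counted, was at 15.4, 15.2 and 13.8 RPKM against 19.4, 16.2 and 11.5 RPKM. The controls spread more widely than the knockdown samples and enclosed all 3 of them. AK4, AK1 and NME1 were at 85.5%, 98.2% and 86.5% of the control mean, and none had a p below 0.2. NME2 was at 0.636 to 1.24 RPKM, backed by 26 to 49 reads per sample. NME1 and NME2 share 18.6% and 22.9% of their exon length with the annotated readthrough gene NME1-NME2, which has no values here. The reads of these neighbours, and so their levels and rank in the group, are uncertain. AK1 shares 33.5% with an annotated protein-coding gene on its own strand, which leaves its level uncertain too.

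The 4 intracellular nucleotidases remove phosphate inside the cell, where CD73 does so outside it. Their differences lay between -0.08 and -0.01, and the smallest p was 0.514. NT5C2, a cytosolic enzyme that prefers IMP and GMP, was at 12.0, 12.7 and 14.3 RPKM against 11.6, 13.6 and 16.0 RPKM. In both groups the third sample was the highest, and the groups overlapped. NT5C3A, which acts on pyrimidine monophosphates, was at 94.1% of the control mean, NT5C at 95.4% and the mitochondrial NT5M at 102%. The intervals of the 4 genes reached from -0.50 to 0.45. NT5C2 shares 36.7% and NT5C 58.1% of their exon length with genes on the opposite strand, and the strand setting of the counting is not given in the sources used here.

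ENTPD4, ENTPD5, ENTPD6 and ENPP1 cleave nucleotides in the secretory pathway or outside the cell, and ENPP1 produces the AMP that CD73 uses. ENTPD4, the Golgi and lysosomal enzyme, was at 9.53, 7.67 and 10.5 RPKM after CD73 siRNA and at 6.71, 6.38 and 8.20 RPKM in the controls. It was higher in each replicate number, by 0.45, 0.23 and 0.32 in log2(RPKM + 1), and the groups overlapped only because the second knockdown sample was below the third control. The difference was 0.33 ± 0.14 (SE) with a p of 0.0466 and an adjusted p of 0.402. With the replicate block ENTPD4 rose with a p of 0.0068, although the adjusted p of 0.119 did not pass. ENTPD6, the most abundant of the 4, was at 23.9, 24.9 and 20.8 RPKM against 27.9, 24.0 and 20.3 RPKM, with the controls enclosing the knockdown samples. ENTPD5 and ENPP1 were at 104% and 98.4% of the control mean, with intervals of -0.21 to 0.30 and of -0.29 to 0.25.

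The pyrimidine ring is built by CAD, DHODH and UMPS, and CTP synthase then converts UTP to CTP. CAD, the trifunctional enzyme of the first steps, was at 103% of the control mean with an interval of -0.19 to 0.29, and UMPS at 108% with an interval of -0.23 to 0.45. DHODH, the mitochondrial dehydrogenase of the route, had the most negative difference of the module in log2(RPKM + 1), -0.292 against -0.285 for AMPD3. As a share of the control mean AMPD3 was the lower, at 74.0% against 76.5% for DHODH. DHODH was at 2.29, 3.52 and 2.33 RPKM against 3.56, 4.34 and 2.73 RPKM, lower within each number by 0.47, 0.24 and 0.17 in log2(RPKM + 1). The groups overlapped through the second knockdown sample, and the difference of -0.29 ± 0.18 (SE) had a p of 0.145, or 0.0276 with the block.

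The 2 CTP synthases had differences of opposite sign. CTPS1 was at 52.0, 67.9 and 56.8 RPKM against 57.8, 75.9 and 62.2 RPKM, lower in each number but overlapping between the groups. Its difference was -0.15 ± 0.14 (SE) with a p of 0.331. It was -0.034 without the second control, -0.061 without the first knockdown sample, -0.25 without the second and -0.23 without the first control. CTPS2, at chrX:16588003-16712936 on the reverse strand, was at 3.06, 2.96 and 2.80 RPKM against 1.71, 2.57 and 2.70 RPKM. All knockdown samples were above all controls, the first control was by far the lowest, and the third knockdown sample exceeded the third control only narrowly. The difference was 0.26 ± 0.15 (SE) with a p of 0.117, and without the first control it was 0.12 with a p of 0.361. The ratio of CTPS1 to CTPS2 was 17.0, 22.9 and 20.3 in the knockdown samples and 33.8, 29.5 and 23.1 in the controls. The ratio was lower in all 3 knockdown samples than in any control, narrowly so for the closest samples, and was not tested. The other isozyme ratios examined (PRPS1 to PRPS2, IMPDH2 to IMPDH1, ADSS2 to ADSS1, UCK1 to UCK2, AMPD2 to AMPD3 and RRM2 to RRM1) overlapped between the groups.

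In pyrimidine salvage, UCK1 and UCK2 phosphorylate uridine and cytidine, UPP1 splits uridine, and CDA deaminates cytidine. UPP1, the most abundant, was at 17.7, 22.1 and 12.2 RPKM against 18.7, 21.1 and 14.1 RPKM. The second sample was the highest and the third the lowest in both groups, and the difference of -0.07 was small beside that spread, with an interval of -0.57 to 0.44. UCK1 and UCK2 were at 101% and 92.3% of the control mean. CDA had 8 to 16 reads per sample and was at 0.517 to 1.11 RPKM.

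The largest difference of the module in log2(RPKM + 1) was in ribonucleotide reductase, the enzyme that converts ribonucleoside diphosphates to their deoxy forms. This scale understates the differences of low genes such as AMPD3, which was at 74.0% of the control mean. RRM2, at chr2:10120698-10131419 on the forward strand, was at 97.8, 99.8 and 90.8 RPKM after CD73 siRNA and at 57.8, 84.0 and 77.0 RPKM in the controls. Every knockdown sample was above every control, and the first control was well below the other 2. The means were 96.2 ± 4.71 RPKM (SD, n = 3) against 72.9 ± 13.6 RPKM (SD, n = 3). The difference was 0.41 ± 0.14 (SE) with an interval of 0.08 to 0.74, a p of 0.0209 and an adjusted p of 0.357. With the replicate block the p was 0.0103. Without the first control the difference was 0.25 with a p of 0.0382.

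RRM1, the large subunit, at chr11:4094707-4138876 on the forward strand, was at 69.6, 67.3 and 71.3 RPKM against 47.8, 63.5 and 64.5 RPKM. The knockdown samples were again all above the controls, and again the first control was the lowest. The difference was 0.25 ± 0.13 (SE) with a p of 0.0859, or 0.0478 with the block, and without the first control it was 0.11 with a p of 0.244. In replicate number 1 the difference was 0.53, in number 2 it was 0.08 and in number 3 it was 0.14 in log2(RPKM + 1). For RRM2 these values were 0.75, 0.25 and 0.23. The ratio of RRM2 to RRM1 was 1.41, 1.48 and 1.27 against 1.21, 1.32 and 1.19, with overlap.

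**Figure D4:**
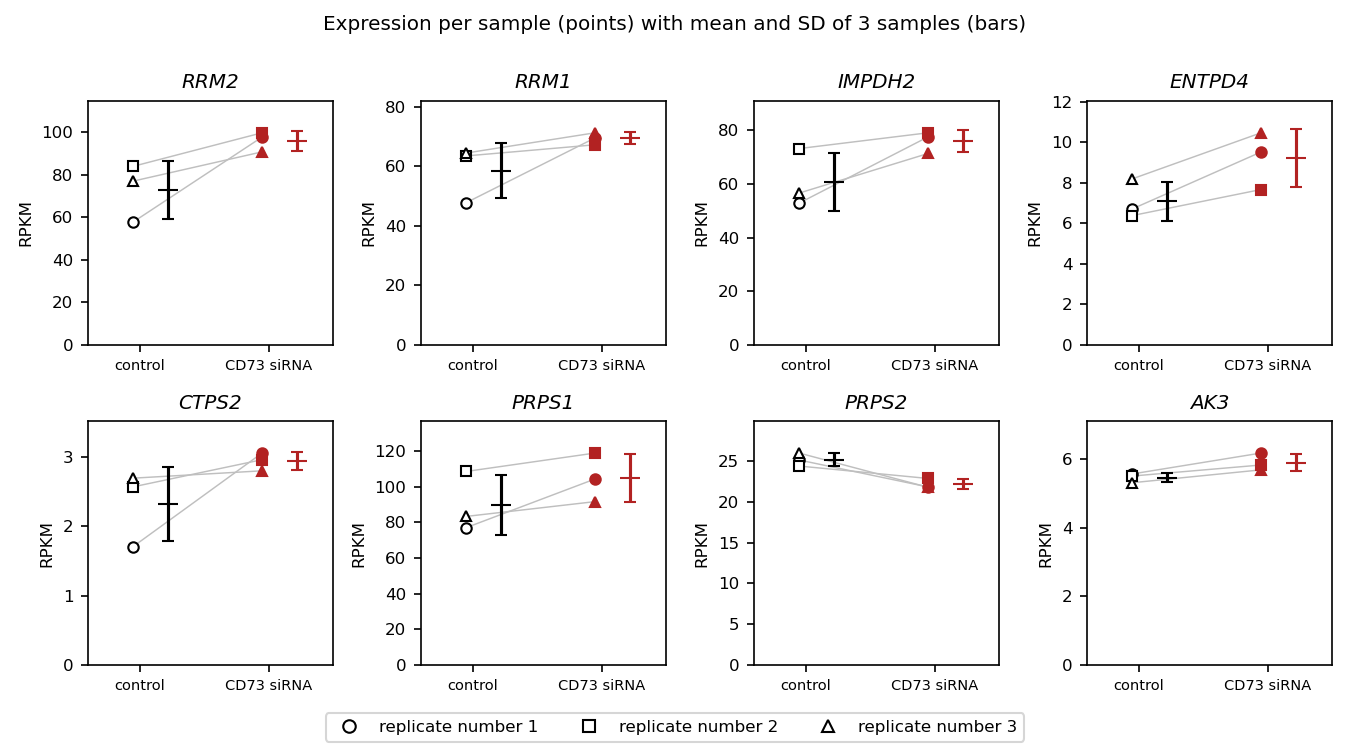
RPKM of 8 genes in each sample (symbols give the replicate number, grey lines join samples of the same number) beside the mean and SD of 3 samples, open for negative control and red for CD73 siRNA. The control of replicate number 1 is the lowest point for RRM2, RRM1, IMPDH2, CTPS2 and PRPS1, and PRPS2 is the gene with all knockdown samples below the controls.

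The start regions of RRM2 and RRM1 are shown because both subunits had separated groups. They are the 250 bases before a RefSeq start in GRCh38.p14, on the forward strand, at chr2:10122489-10122738 for RRM2, which is the downstream of its listed starts, and at chr11:4094435-4094684 for RRM1. Capitals mark CCAAT, the binding motif of the factor NF-Y.
RRM2 start region: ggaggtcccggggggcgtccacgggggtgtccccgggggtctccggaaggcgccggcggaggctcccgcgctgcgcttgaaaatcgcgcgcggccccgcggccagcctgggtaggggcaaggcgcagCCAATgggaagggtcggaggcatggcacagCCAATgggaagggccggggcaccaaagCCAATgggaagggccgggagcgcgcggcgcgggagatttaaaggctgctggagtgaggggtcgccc
RRM1 start region: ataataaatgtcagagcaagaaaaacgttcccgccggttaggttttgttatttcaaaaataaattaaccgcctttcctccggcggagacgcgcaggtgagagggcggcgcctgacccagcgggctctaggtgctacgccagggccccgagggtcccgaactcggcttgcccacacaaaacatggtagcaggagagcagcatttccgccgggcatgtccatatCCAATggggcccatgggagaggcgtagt
The RRM2 window holds 3 copies of CCAAT and the RRM1 window 1 copy. RefSeq promoter windows were found for 45 of the 48 members, and IMPDH2, ENTPD4 and ADSL were not matched. CCAAT or its complement ATTGG was present in 16 of the 79 windows of the members (20.3%), against 32.0% of 35116 windows of all genes. The GC box GGGCGG, read on both strands, was present in 57 windows (72.2%), against 42.6%, and the E-box CACGTG, a motif bound by MYC, in 7 windows (8.86%), against 6.35%. Several windows belong to the same gene and overlap, and a match describes the letters only.

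The interval of RRM1, -0.04 to 0.55, included 0, and so did those of the other genes of deoxynucleotide supply apart from RRM2. TK1, the thymidine kinase of S phase, was at 93.0, 86.6 and 94.4 RPKM against 112, 91.7 and 88.2 RPKM. Its first control was the highest of the 6 samples, and the difference of -0.08 had an interval of -0.35 to 0.18. TYMS, which makes dTMP, was at 96.3% of the control mean with an interval of -0.29 to 0.18, and DUT, which removes dUTP, at 99.0% with an interval of -0.27 to 0.24. DCK, the kinase that salvages deoxycytidine, was at 109% with an interval of -0.20 to 0.41. TYMS shares 39.2% of its exon length with ENOSF1 on the opposite strand. RRM2 shares 20.2% with an annotated protein-coding gene on its own strand, and DUT, PAICS, IMPDH1, AK4, AK3, RRM2 and HPRT1 each have at least 3 annotated pseudogenes, so part of their reads could be assigned differently by another counting.

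Genes of S phase were set beside the reductase, since RRM2 is a transcript of cycling cells. Of 34 listed S phase genes, all tested, 1 was called (2.94%, against 3.13% of all tested genes). E2F1, a transcription factor of S phase entry, rose from 26.3, 34.8 and 30.0 RPKM in the controls to 42.1, 39.9 and 43.9 RPKM, a difference of 0.46 ± 0.12 (SE) with a p of 0.0047 and an adjusted p of 0.303. This call was lost without the first or the third sample of either group, with a p between 0.0129 and 0.0179. With CHAF1B and TIPIN, which were also higher, 3 of the 34 had a p below 0.05 (8.82%, against 12.1%). The list had 17 positive and 17 negative differences. In all 3 replicate numbers 9 genes were higher (26.5%, against 27.0% of all tested genes) and 10 lower (29.4%, against 24.5%). All 3 knockdown samples lay above all 3 controls for E2F1, CHAF1B and TIPIN (8.82%, against 10.3%). They lay below them for MCM7 and UNG (5.88%, against 8.07%), with a p of 0.0574 and 0.0565. The summed level of the 34 genes was 969 to 992 RPKM in the knockdown samples and 961 to 1003 RPKM in the controls, with overlap. MYC, a known activator of nucleotide enzyme genes, was at 33.8, 49.1 and 38.2 RPKM against 57.1, 58.5 and 46.7 RPKM, with a difference of -0.42 and a p of 0.0253, or 0.0077 with the block. The part of these genes in the values of RRM2 and RRM1 was not tested.

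Beyond the module, 50 further genes of nucleotide metabolism were listed, 47 were in the tables and 31 were tested. None was called at p below 0.01 in limma with or without the block. Without the block 4 had a p below 0.05 (12.9%, against 12.1% of all tested genes), 3 of them higher and 1 lower. With it 10 did (32.3%, against 23.3%), 5 higher and 5 lower. The groups were separated for 5 genes above and 5 below the controls (16.1% each, against 10.3% and 8.07%). In all 3 replicate numbers 11 were higher (35.5%, against 27.0%) and 7 lower (22.6%, against 24.5%). UPRT, a homologue of uracil phosphoribosyltransferases, was at 5.15, 4.93 and 4.90 RPKM against 3.16, 3.85 and 4.17 RPKM, with a p of 0.019. DCTPP1, a dCTP pyrophosphatase, was lower at 37.9, 39.5 and 33.8 RPKM against 54.8, 45.5 and 39.8 RPKM, with a p of 0.0447. The groups were separated for both of these genes, which were chosen for naming after their values were seen. RRM2B, the alternative small subunit of the reductase, was at 101% of the control mean. MTAP, which salvages the adenine of methylthioadenosine, was near 0 in all samples at 0.0132 to 0.0406 RPKM.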

How the data were processed

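RNA from 6 PANC-1 samples, 3 with CD73 siRNA and 3 with negative control, was sequenced on Illumina libraries. Each sample has a table deposited by the authors, whose values they had scaled to gene length and library size (RPKM). This unit is not named there and was read from the values, because multiplied by the merged exon length in GENCODE 29 they were whole multiples (within 0.05) of a single step in 95.5% to 95.6% of the genes under 1000 reads. The step gave the library total and the reads behind a value. The submitters' processing notes name Bowtie2 2.2.3, HTSeq 0.6.0, bcl2fastq and hg38, without their order, and the annotation and strand setting are not given in the sources used here. Of the 30735 identifiers, 30384 had a symbol and 132 were absent from GENCODE 29.

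Values were compared as log2(RPKM + 1) with limma 3.58.1 (lmFit, eBayes with trend) in R 4.3.3, for genes of at least 1 RPKM in at least 3 samples, with Benjamini-Hochberg adjustment over all of them. Unless another test is named, p-values are two-sided and from limma. Fold changes on this scale understate those of low genes. The pipeline was tested on simulated data whose changed genes differed by far more than any member did here. That test does not show how small a difference could be found. Samples of the same number deviated together (correlations of 0.197, 0.481 and 0.553 over genes), so a fit with the number as a block was added. That the numbers pair the samples is read from these values alone, and the correlation of number 1 was the lowest. The study describes separate knockdown experiments but does not say whether the numbers mark them. The labels give no other batch, and p-values measure only the spread between these samples.

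The module's members, the lists and the tests were chosen with earlier results of these data known. Sample values were given for members past p below 0.01 in either fit, those with separated groups and the most abundant of each role, and for PPAT, PNP, AMPD3 and DHODH, which were added after their values were seen. Alternatives were a pseudocount of 0.1, no filter, median-of-ratios scaling, the block, and leaving out each sample. Some genes of the further list are not reported here.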

Additional observations from a re-analysis of the deposited data

How the results depend on the processing

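The differences of 20 single genes were recomputed under 10 alternatives each, of which 179 values kept their direction and their side of p below 0.01. The count of all genes called was 392, rose to 948 with the replicate block, and ran from 110 to 791 when 1 sample was left out, with 110 lacking the first CD73 siRNA sample and 181, 791 and 254 lacking the first, the second and the third control. The count of members called was 0, became 1 with the block (ENTPD4), and ran from 0 to 2 with 1 sample left out, reaching 2 without negative control replicate 2. The other nucleotide genes ran from 0 to 1 (1 without negative control replicate 2) and the S phase genes from 0 to 1. The difference of NT5E ran from -1.44 to -0.90 with 1 sample left out. Besides ENTPD4 and MYC, the block changed no other call among the genes named. MYC, at -0.42, was also past the limit, at -0.57, when the second CD73 siRNA sample was left out. The sign was not stable for 7 genes near 0. With 1 sample left out, HPRT1 ran from -0.15 to 0.030, AMPD2 from -0.092 to 0.15, GUK1 from -0.25 to 0.10, NT5C2 from -0.17 to 0.048, ENTPD6 from -0.15 to 0.066, UPP1 from -0.25 to 0.15 and TK1 from -0.15 to 0.021. The cause was not tested. Reads limit XDH, NME2 and CDA, which had at most 49 reads in a sample.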
